A study of Mus musculus with 57 samples.

Results

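The comparison described here asked what protons changed in Lewis lung carcinoma tumours grown in adolescent mice. It set 10 tumours that had received proton irradiation at 0.5 Gy in each of 3 fractions against 9 tumours given the sham schedule of 3 fractions at 0 Gy, so 19 of the 57 arrays analysed here entered it. Each tumour's group comes from its labels, and the choice to give values without sham replicate 5 was made knowing that this array stands apart. All 19 hosts were male and are labelled young or adolescent, all carried tumours of the same line, and no allele or drug is named for either group. The labels give no strain, age in weeks, tumour site or time between the last fraction and harvest. The study also profiled tumours of old mice and sham tumours of an acute schedule, and its title names age and proton irradiation as the factors behind tumour progression. The series' design text says that tumours were run individually, and nothing further says how they were grouped in the laboratory, so p-values measure the spread between these tumours. The labels number the irradiated tumours 144 to 154 and the sham tumours 134 to 142, and a difference in when the groups were handled cannot be told apart from irradiation.

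Lewis lung carcinoma is a mouse tumour line that grows as a solid mass and recruits vessels, fibroblasts and myeloid cells from its host. Ionising radiation breaks DNA, and in cells with working p53 the break signal stabilises that transcription factor, which then raises a well known set of targets such as Cdkn1a, an inhibitor of cyclin-dependent kinases, and Mdm2, the ligase that degrades p53. In bulk tumour RNA, fewer cells of a type and less RNA per cell cannot be told apart.

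The tumours did not carry a lung epithelial profile. Nkx2-1, Scgb1a1, Lamp3 and the 4 surfactant genes with a probe, which mark lung epithelium, were not detected on any of the 19 arrays, and 2 of the 10 measured lung markers, Foxj1 and Pdpn, passed the detection filter. Myeloid, fibroblast and vessel markers were readily measured, with 20 of 23 macrophage genes, 21 of 24 matrix and fibroblast genes and 22 of 24 endothelial genes tested.

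Technical measures of the 2 groups overlapped, and sham replicate 5 lay furthest from the other arrays. The share of probes detected at a detection p under 0.05 was 41.2% ± 0.61 (SD, n = 10) in irradiated tumours and 40.6% ± 1.26 (SD, n = 9) in sham tumours, with a two-sided exact permutation p of 0.196. Background intensity was 105 ± 13.3 in irradiated and 99.8 ± 10.8 in sham tumours (exact permutation p = 0.348). Sham replicate 5 lay apart: its mean correlation with the other arrays was 0.937, against 0.963 to 0.979 for the other 18 arrays, and 1275 of its probes stood more than 1 log2 unit from the sham median, where the median of the other arrays was 234. Irradiated replicate 1 came next, with a mean correlation of 0.963 and 756 probes that far from the irradiated median. The leading genes of sham replicate 5 were those of skeletal muscle, among them Atp2a1, the calcium pump of fast muscle, at 14.58, and Acta1, skeletal actin, at 14.48. The summed intensity of 8 muscle markers was 34138 on irradiated replicate 1 and 299 to 2404 on the other 9 irradiated arrays. It was 127480 on sham replicate 5 and 303 to 3050 on the other 8 sham arrays. The counts of called probes are given with and without sham replicate 5.

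Differences between irradiated and sham tumours were few and small. A total of 77 probes passed an adjusted p of 0.05, which is 0.415% of the 18547 tested. Of these, 24 were higher in irradiated tumours (0.129%) and 53 lower (0.286%), a balance that depended on single tumours: it was 46 higher and 46 lower without irradiated replicate 1, and 1 higher and 14 lower without sham replicate 4. Their log2 differences, irradiated minus sham, ran from -0.89 to 0.82, and the median absolute difference was 0.59 among them and 0.13 over all tested probes. Without sham replicate 5, 69 of 18443 probes passed (0.374%), with 16 higher (0.0868%) and 53 lower (0.287%), and 58 of them were among the 77. Groups did not overlap for 9 of the 77 probes, 1 higher and 8 lower, and for 10 of all 18547 (0.0539%). At an unadjusted p of 0.05 the number was 2933, or 15.8%.

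The count depended on single tumours. Leaving out each tumour in turn gave 15 to 197 calls. The count fell to 51, 16, 17, 23 and 22 without irradiated replicates 5, 6, 7, 8 and 9, and to 15, 17, 21, 15 and 25 without sham replicates 1, 2, 3, 4 and 6. It rose to 197 without sham replicate 8. A set of 12 probes, all lower in irradiated tumours, passed in every one of these fits. They stand for 11 named genes (Mterf1a, Mterf1b, Polr1a, Arhgef18, Cnot11, Ino80d, Tm6sf1, Syne2, Zfp507, Ankhd1 and Kat6a) and 1 probe with no gene name, a selection made after the values were seen.

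**Figure D1:**
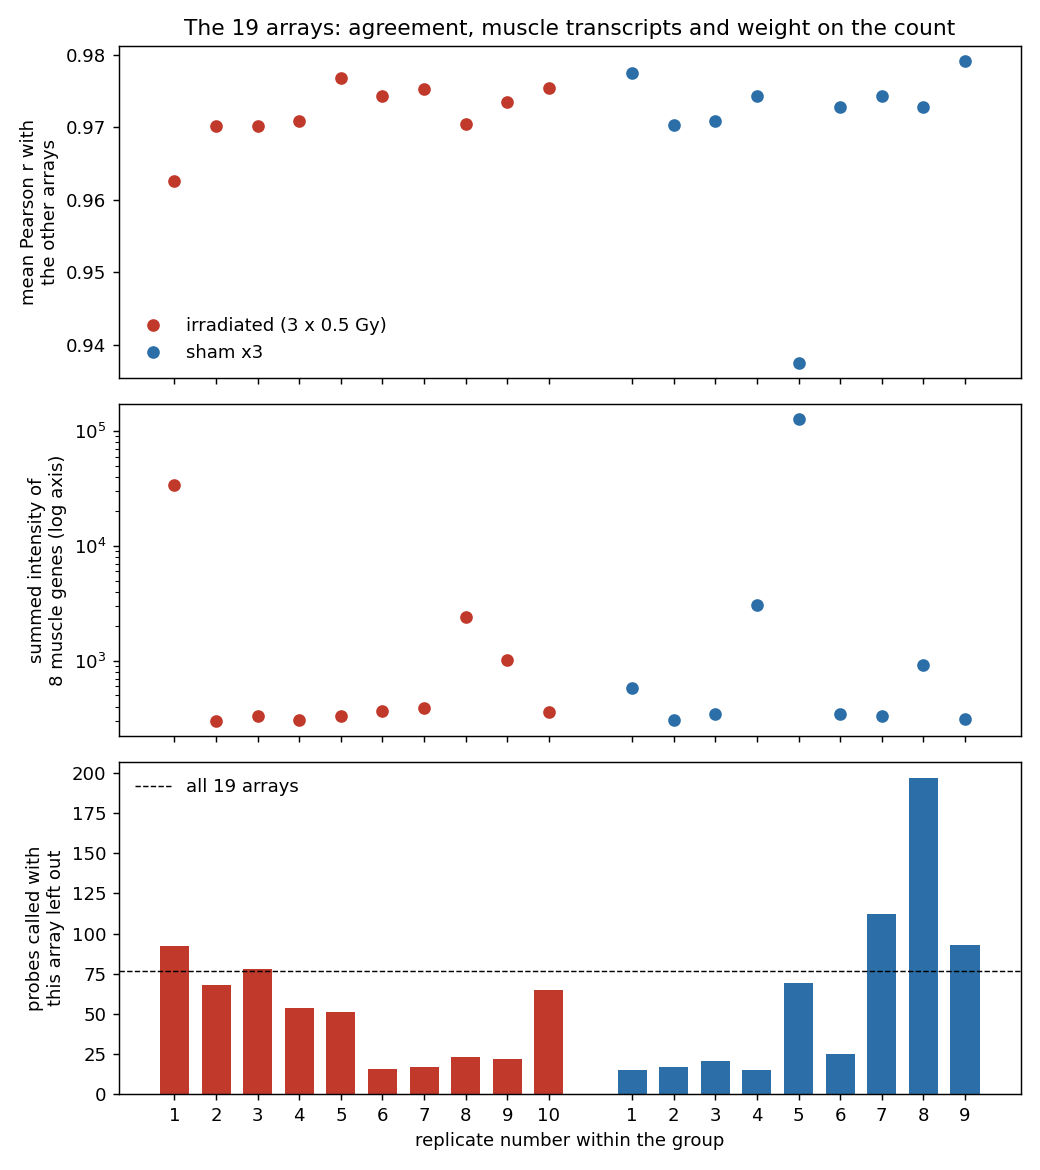
Each panel shows 1 value per array, irradiated tumours on the left and sham x3 tumours on the right: mean correlation with the other arrays, summed muscle marker intensity (log axis), and the number of probes called with that array left out. Sham replicate 5 has the lowest correlation, 0.937, and the highest muscle sum, 127480, while the largest count, 197, comes without sham replicate 8.

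**Figure D2:**
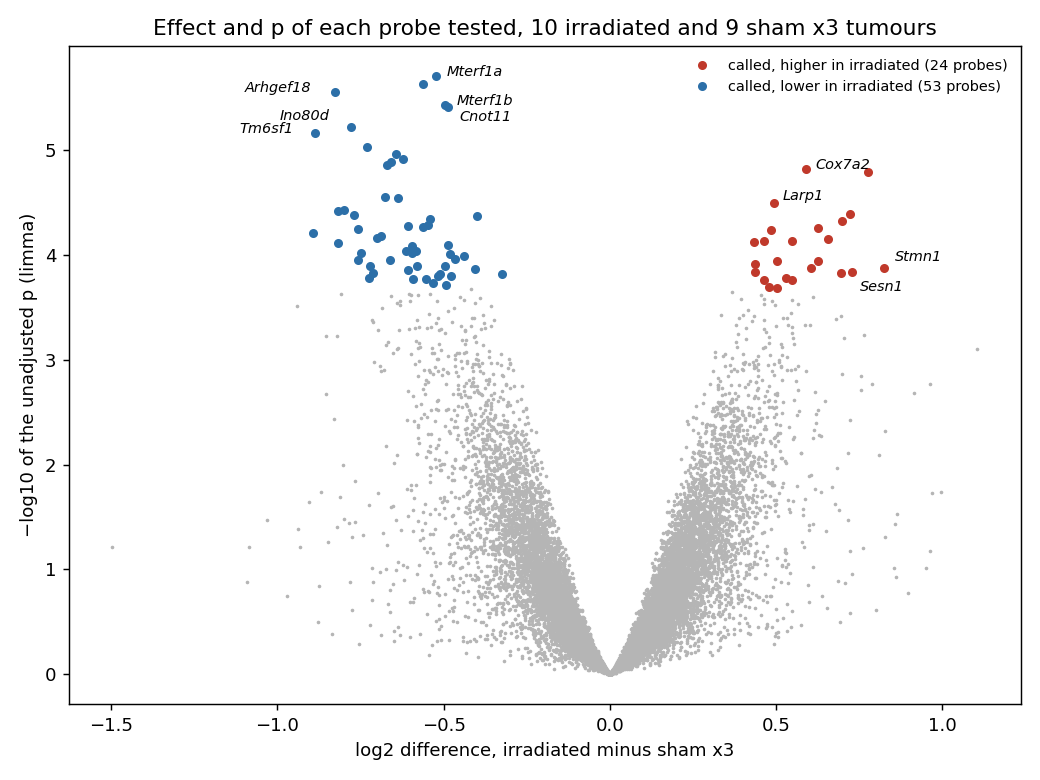
Each point is 1 of 18547 probes, with the log2 difference of irradiated minus sham x3 tumours on the horizontal axis and −log10 of the unadjusted p on the vertical axis. The 24 higher and 53 lower called probes are coloured, and the lower ones reach the smaller p-values.

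Of the 77 called probes, 53 carry a gene symbol, for 49 genes, and 24 have none. Probes of the same gene did not always move together. For 39 of the 53 another probe of the gene was tested, and in 14 of those at least 1 other probe had the opposite sign. In 5 the opposite sign came with an unadjusted p under 0.05, and 4 genes (Bex3, Syne2, Mterf1a and Zfp507) had a second called probe of the same sign. A probe reads 1 stretch of a transcript, so the values below belong to the probe.

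The probe with the lowest p belonged to Mterf1a, which with Mterf1b makes up a pair of mouse copies of the gene for mitochondrial transcription termination factor, a protein that binds mitochondrial DNA. In the following, 3 log2 intensities of a group are its lowest, median and highest tumour, and a difference is irradiated minus sham with its standard error. Mterf1a stood at 8.26, 8.46 and 8.76 in irradiated tumours and 8.84, 9.05 and 9.12 in sham tumours, and Mterf1b at 8.25, 8.42 and 8.59 in irradiated and 8.67, 8.95 and 9.09 in sham tumours. All 10 irradiated tumours lay below all 9 sham tumours for both probes. The differences were -0.52 ± 0.08 for Mterf1a and -0.49 ± 0.08 for Mterf1b, each with an adjusted p of 0.0144. Without sham replicate 5 they were -0.53 (adjusted p = 0.0179) and -0.48 (adjusted p = 0.0235). The second Mterf1a probe differed by -0.40 (adjusted p = 0.0437) and the second Mterf1b probe by -0.47, which did not pass (adjusted p = 0.08). The genes are near-identical copies and the probes may not tell them apart, so they are best read as 1 measurement.

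The promoters of the pair are shown because they let a reader see how alike the copies are. They come from RefSeq on GRCm38.p6 and cover 300 bases around the start of each gene, most of them upstream of it. Capitals mark TGACGTCA, the cyclic AMP response element, which was searched as these 8 letters and reads the same on both strands.
Mterf1a, chr5:3893884-3894183, minus strand: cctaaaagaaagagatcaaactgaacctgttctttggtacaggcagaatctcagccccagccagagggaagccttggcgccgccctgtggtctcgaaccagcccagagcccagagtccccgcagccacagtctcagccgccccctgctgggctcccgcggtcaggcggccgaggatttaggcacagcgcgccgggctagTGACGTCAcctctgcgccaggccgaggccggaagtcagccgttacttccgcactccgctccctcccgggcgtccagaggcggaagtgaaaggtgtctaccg
Mterf1b, chr5:4192117-4192416, plus strand: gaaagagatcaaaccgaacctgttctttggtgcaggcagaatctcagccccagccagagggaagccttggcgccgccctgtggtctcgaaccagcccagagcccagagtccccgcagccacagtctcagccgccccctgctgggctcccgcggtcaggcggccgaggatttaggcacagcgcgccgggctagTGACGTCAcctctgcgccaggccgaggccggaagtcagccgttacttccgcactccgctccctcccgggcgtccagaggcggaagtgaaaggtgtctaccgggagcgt
Each window held the element once, starting at base 200 in Mterf1a and base 193 in Mterf1b. Aligned with a shift of 7 bases, the windows shared 291 of 293 bases (99.3%). The element is in 588 of 32851 RefSeq mouse promoters of this length (1.79%), and its presence is a match of letters.

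Other called probes are given gene by gene, since most of these genes belong to no list that was tested. Cox7a2, Rrm2b and Sesn1 are on lists given further below. Polr1a, the largest subunit of RNA polymerase I, which makes ribosomal RNA, stood at 9.15, 9.43 and 9.64 in irradiated and 9.75, 9.92 and 10.28 in sham tumours. Its groups did not overlap, with a difference of -0.56 ± 0.09 (adjusted p = 0.0144). Of its other 3 tested probes, none passed, at -0.04, -0.03 and 0.11. Kat6a, a histone acetyltransferase, also had separate groups, with 5.27, 5.74 and 5.89 in irradiated and 6.06, 6.25 and 7.05 in sham tumours and a difference of -0.67 ± 0.12 (adjusted p = 0.0214). Ino80d, a subunit of the INO80 chromatin remodeller, stood at 6.94, 7.18 and 7.70 in irradiated and 7.55, 7.77 and 8.54 in sham tumours, a difference of -0.78 ± 0.13 (adjusted p = 0.0182). For that gene 9 of 10 irradiated tumours lay below the lowest sham tumour.

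The acetyltransferase Crebbp, a co-activator for many transcription factors, stood at 6.40, 7.58 and 8.17 in irradiated and 7.90, 8.25 and 8.75 in sham tumours. Again 9 of 10 irradiated tumours fell under the lowest sham value, and the difference was -0.82 ± 0.17 (adjusted p = 0.0378). A second Crebbp probe differed by -0.71 without passing (adjusted p = 0.0623), and another, dimmer one by -0.05. Ttf1, the factor that ends RNA polymerase I transcription, differed by -0.72 (adjusted p = 0.0434) but was detected in only 4 of 10 irradiated tumours and in 9 of 9 sham tumours. The sham tumours alone sufficed for Ttf1 to meet the detection filter, and most of its irradiated values are near background. Kdm1b, a histone demethylase named after its values were seen, differed by -0.52 (adjusted p = 0.0442, and 0.0547 without sham replicate 5), and its dimmer second probe by 0.05. Ehmt1, a histone H3 lysine 9 methyltransferase, passed only without that array, at -0.89 (adjusted p = 0.0424), against -0.81 (adjusted p = 0.0528) with it. A dimmer Ehmt1 probe differed by -0.33 with it and did not pass.

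Cnot11, Arhgef18 and Zfp507 had ranges that did not cross. Cnot11, a subunit of the CCR4-NOT deadenylase, which shortens messenger RNA tails, stood at 7.16, 7.26 and 7.44 in irradiated and 7.50, 7.77 and 8.06 in sham tumours without overlap, a difference of -0.49 ± 0.08 (adjusted p = 0.0144). Its other tested probe differed by -0.08. Arhgef18, a guanine nucleotide exchange factor, had 4.902, 5.39 and 5.82 in irradiated and 5.87, 6.27 and 6.60 in sham tumours, again without overlap, for a difference of -0.83 ± 0.13 (adjusted p = 0.0144). The second Arhgef18 probe, several log2 units brighter, differed by -0.25 without passing. Zfp507, a zinc finger protein, stood at 5.87, 6.25 and 6.39 in irradiated and 6.39, 6.89 and 7.24 in sham tumours, ranges that met without crossing, and both of its called probes fell, by 0.62 and by 0.58 on the log2 scale.

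Syne1 and Syne2 encode giant nesprins, which tie the nucleus to the cytoskeleton, and the tested Syne2 probes differed in sign. The 2 called probes of Syne2 differed by -0.64 ± 0.11 and -0.72 ± 0.16, and 9 and 6 of the 10 irradiated tumours lay below the lowest sham tumour. Another Syne2 probe went the other way, at 0.42, without passing (adjusted p = 0.124). Syne1 stood at 6.31, 6.53 and 6.82 in irradiated and 6.49, 7.46 and 7.68 in sham tumours, groups that overlapped, with a difference of -0.70 ± 0.14 (adjusted p = 0.0378). Its 2 other tested probes, at -0.64 and -0.55, had the same sign without passing. Tm6sf1, a membrane protein, had the most negative difference of any named called probe, with 4.74, 5.42 and 5.81 in irradiated and 5.61, 6.15 and 6.78 in sham tumours and a difference of -0.89 ± 0.15 (adjusted p = 0.0182). Its brighter second probe differed by -0.20 (adjusted p = 0.628). Ankhd1, a large ankyrin repeat protein, differed by -0.66 ± 0.12 (adjusted p = 0.0214), and its other tested probe by -0.18 without passing.

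Further genes were lower in irradiated tumours. They included Sf3b3, a core splicing factor, at -0.76 (adjusted p = 0.0419), Ubxn7, an adaptor of the segregase p97, at -0.80 (adjusted p = 0.0357), and Ankrd11, a chromatin regulator, at -0.75 (adjusted p = 0.0406). Each has a brighter probe that did not pass, at 0.09 for Sf3b3, -0.12 for Ubxn7 and -0.06 for Ankrd11. The other 2 tested Ankrd11 probes stood at 0.21 and -0.61 without passing. A pair of others was named after their values were seen. Fancm, the helicase of the Fanconi anaemia pathway of crosslink repair, differed by -0.61 (adjusted p = 0.0361) and the ubiquitin ligase Itch by -0.61 (adjusted p = 0.0437, and 0.0513 without sham replicate 5). Their other tested probes did not pass, at -0.37 and -0.33 for Fancm and -0.42 for Itch. Gnmt, which methylates glycine, stood at 4.48, 4.89 and 5.30 in irradiated tumours, 3 of them with a detected signal, and at 5.26, 5.51 and 6.06 in the 9 sham tumours, all detected. The sham tumours alone sufficed for Gnmt to meet the detection filter, and most of its irradiated values are near background. Trpc4ap, an adaptor of a ubiquitin ligase, was detected in 3 of 10 irradiated and 8 of 9 sham tumours, and its call was lost without sham replicate 5 (adjusted p = 0.0594). Its 3 brighter probes stood at 0.04, -0.07 and 0.04. Atp5c1, the gamma subunit of mitochondrial ATP synthase, had a bright probe and was named here after its values were seen. It stood at 12.29, 12.52 and 12.71 in irradiated and 12.73, 12.90 and 13.09 in sham tumours without overlap, a difference of -0.40 ± 0.08 (adjusted p = 0.0357).

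**Figure D3:**
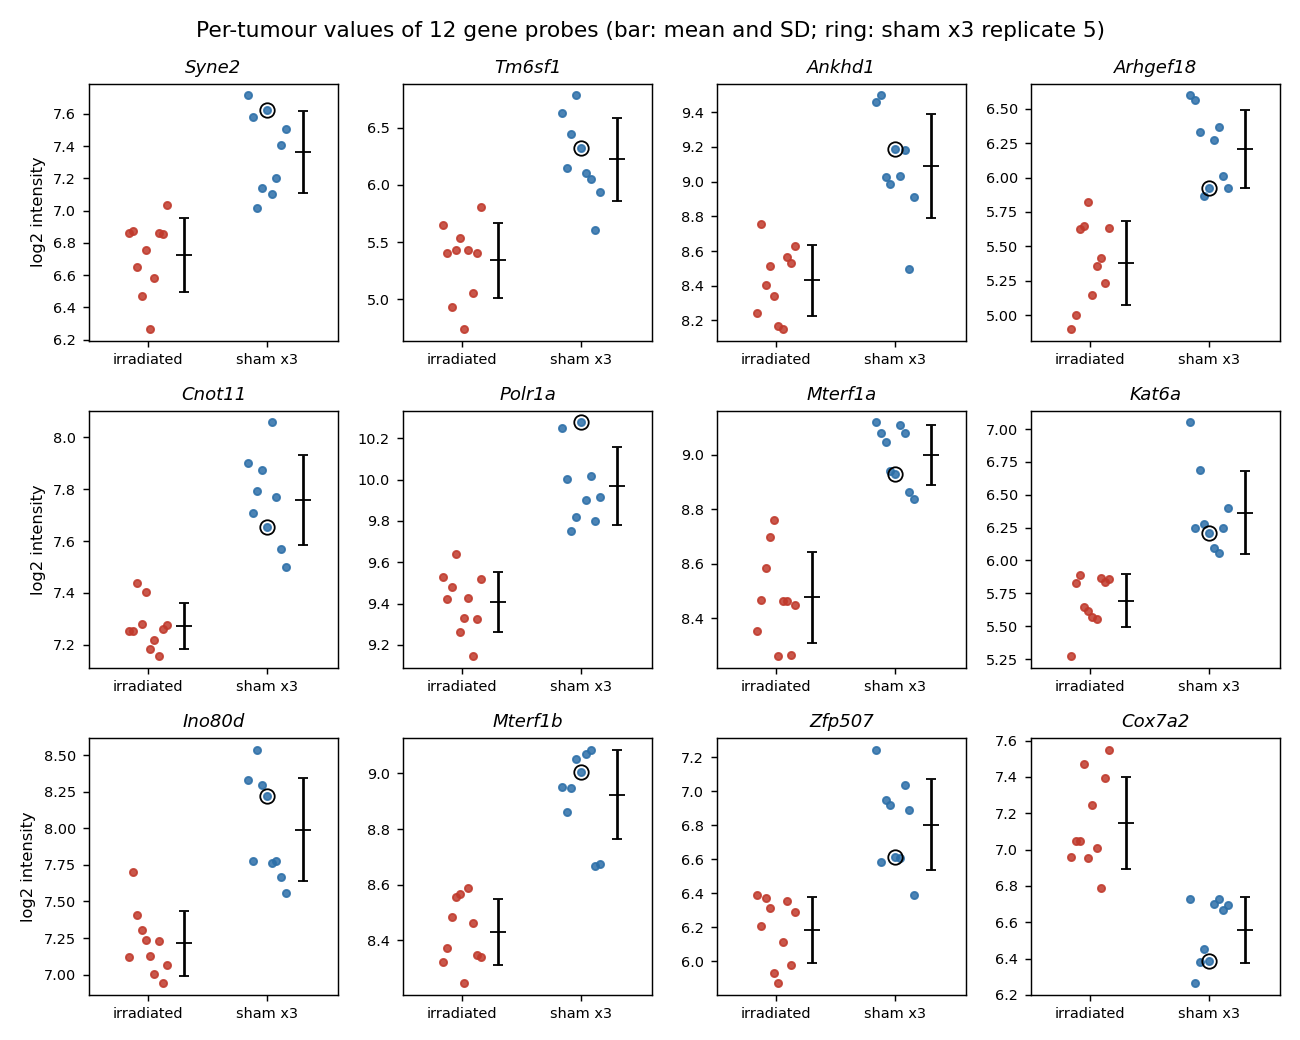
Log2 intensity of 12 probes in each tumour, irradiated on the left of each panel and sham x3 on the right, with bars for the mean and SD and a ring around sham replicate 5. The 11 named genes that passed whichever tumour was left out are lower in irradiated tumours, and Cox7a2 is higher without overlap.

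Among the 24 probes that rose, 12 carry a symbol, for 11 genes. Cox7a2, a subunit of cytochrome c oxidase in the respiratory chain, was the one whose groups did not overlap. It stood at 6.79, 7.05 and 7.55 in irradiated and 6.26, 6.67 and 6.73 in sham tumours, a difference of 0.59 ± 0.11 (adjusted p = 0.0214, and 0.0343 without sham replicate 5). Stmn1, which destabilises microtubules in dividing cells, had the largest difference. Its values were 5.59, 6.63 and 7.10 in irradiated and 5.16, 5.60 and 6.51 in sham tumours, 0.82 ± 0.18 (adjusted p = 0.0434), and the call was lost without sham replicate 5 (adjusted p = 0.061). For Stmn1, 6 of 10 irradiated tumours exceeded the highest sham tumour.

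The RNA-binding protein Larp1, which controls translation of ribosomal protein messages, stood at 8.56, 8.72 and 9.08 in irradiated and 7.93, 8.21 and 8.65 in sham tumours, with 7 of 10 irradiated tumours above the sham range and a difference of 0.49 ± 0.09 (adjusted p = 0.0353). Its other 2 probes differed by 0.18 and 0.10 without passing. Eif4a2, a translation initiation helicase, rose by 0.63 ± 0.13 (adjusted p = 0.0419) on a dim probe, while its 2 brighter probes stood at 0.22 and -0.13. Bex3, a small adaptor of neurotrophin receptor signalling, rose on both called probes, by 0.48 ± 0.10 and 0.44 ± 0.09, and 8 of 10 irradiated tumours exceeded the sham range for each. Ylpm1, a nuclear protein, rose by 0.63 ± 0.13 with 9 of 10 irradiated tumours above the sham range. Ptges3, the Hsp90 co-chaperone p23, likewise had 9 of 10 above and a difference of 0.43 ± 0.09 (adjusted p = 0.0378). Trerf1, a transcriptional regulator, differed by 0.66 (adjusted p = 0.0378) with its other probes at 0.13 and -0.03.

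Of these 11 genes, 3 lost their call without sham replicate 5. They were Stmn1, described above, Rcor3, a CoREST family corepressor, at 0.48 (adjusted p = 0.0498 with that array and 0.0599 without it), and Rad23b, a partner of Xpc in nucleotide excision repair, at 0.46 (adjusted p = 0.0446 with it and 0.0666 without it). Probes of Rad23b disagreed, with one at -0.50 (adjusted p = 0.0836) and the brightest at -0.01. Ndufa5, a subunit of respiratory complex I, and Commd1, a copper and NF-kappa-B regulator, passed only without sham replicate 5, at 0.59 (adjusted p = 0.0428) and 0.52 (adjusted p = 0.0493). Each has a brighter probe that did not pass with all 19 arrays, at 0.13 for Ndufa5 and 0.18 for Commd1.

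The p53 targets as a group did not separate irradiated from sham tumours. Of 27 targets with a probe, 24 were tested by their brightest probe: 0 rose, 1 fell, and 15 had a positive difference, with a median of 0.07. Over all 9889 named genes tested by their brightest probe, 29 were called (0.293%), 7 higher (0.0708%) and 22 lower (0.222%), 49.7% were positive and the median was -0.00. Cdkn1a stood at 10.40, 11.18 and 11.50 in irradiated and 10.21, 11.05 and 11.50 in sham tumours, ranges that covered each other, with a difference of 0.11 ± 0.17 (adjusted p = 0.8). Mdm2 stood at 11.43, 11.84 and 12.13 in irradiated and 11.15, 11.84 and 12.18 in sham tumours, a difference of 0.04 ± 0.14 (adjusted p = 0.922) whose sign turned in the authors' deposited normalized values and in the fits without sham replicate 6 or 8. The arrest gene Ccng1 differed by -0.22 ± 0.22, the autophagy and death regulator Trp53inp1 by -0.32 ± 0.28, the Akt inhibitor Phlda3 by 0.17 ± 0.21, the killer protein Bbc3 by -0.22 ± 0.16 and the death receptor Fas by 0.10 ± 0.13. None of these 5 passed, with adjusted p-values from 0.505 to 0.732.

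The target called by its brightest probe was Rrm2b, the p53-induced subunit of ribonucleotide reductase that supplies nucleotides for repair, and it fell. It stood at 7.60, 7.90 and 8.42 in irradiated and 8.22, 8.37 and 8.71 in sham tumours, and the difference was -0.49 ± 0.10 (adjusted p = 0.0381, and 0.0493 without sham replicate 5). Sesn1, a stress-induced p53 target that restrains mTOR signalling, gave different answers by probe. The called probe stood at 6.06, 6.30 and 6.75 in irradiated and 4.74, 5.55 and 6.32 in sham tumours, 0.73 ± 0.16 (adjusted p = 0.0437), with 5 of 10 irradiated tumours above the sham range. The 2 brighter Sesn1 probes differed by -0.15 and 0.05 without passing.

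The lists of DNA repair, mitosis, replication and apoptosis genes held no calls, while the called repair genes Fancm and Rad23b belong to none of them. With 0.293% of all named genes called by their brightest probe, few calls would be seen in lists as short as these and those below. Of 30 break and excision repair genes tested, 17 were positive (median 0.02). The kinase Atm, which signals double-strand breaks, differed by -0.32 (adjusted p = 0.145) and Brca2, which loads the recombinase at breaks, by 0.34 (adjusted p = 0.142). Of 16 genes of G2 and mitosis, 9 were positive (median 0.02), and of 21 replication genes 12 were (median 0.05), with the thymidine kinase Tk1 nearest to a call. Tk1 stood at 9.66, 9.93 and 10.38 in irradiated and 9.15, 9.47 and 9.85 in sham tumours, a difference of 0.45 ± 0.12 (adjusted p = 0.0827). The 18 apoptosis genes were split evenly, with 9 positive and a median of -0.00. Signs of the repair, mitosis and apoptosis medians turned in 4, 5 and 10 of the 39 other settings tried, and that of the replication median in 1.

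Genes that respond to low oxygen gave no calls, where 0.293% of all named genes were called by their brightest probe. Of 20 hypoxia genes tested, 16 had a positive difference, with a median of 0.25. This median ran from 0.14 to 0.40 in the 39 other settings, which reuse the same arrays and are not separate evidence. The summed intensity of these genes overlapped between groups, at 12057 to 44090 in irradiated and 13378 to 34797 in sham tumours. Ddit4, an inhibitor of mTOR that hypoxia and stress induce, stood at 9.46, 10.46 and 11.39 in irradiated and 8.996, 9.58 and 10.37 in sham tumours. These ranges overlapped, and the difference was 0.72 ± 0.24 (adjusted p = 0.161). The kinase Pdk1, which inhibits pyruvate dehydrogenase, differed by 0.49 (adjusted p = 0.294) and Angptl4, a secreted inhibitor of lipoprotein lipase, by 0.52 (adjusted p = 0.397). Of 14 glycolysis genes 10 were positive (median 0.09). The hexokinase Hk1 stood at 7.28, 7.97 and 8.70 in irradiated and 6.47, 7.46 and 8.14 in sham tumours, overlapping ranges with a difference of 0.61 ± 0.20 (adjusted p = 0.145). Pfkfb4, which sets the level of a glycolytic activator, had the opposite sign, at -0.51 (adjusted p = 0.181).

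Inflammatory, matrix and oxidant defence genes had medians of 0.16, 0.21 and 0.17, and none of their members passed. Of 18 inflammatory cytokines and chemokines, 17 were positive, among them the monocyte attractant Ccl12 at 0.69 (adjusted p = 0.453) and the NF-kappa-B inhibitor Nfkbia at 0.37 (adjusted p = 0.527). The exception, Il18, stood at -0.17. Across the other settings their median ran from 0.07 to 0.33. Of 21 matrix and fibroblast genes 15 were positive, with Sparc, a matrix glycoprotein, at 0.34 (adjusted p = 0.218). The fibrillar collagen Col1a1 stood at 7.70, 8.43 and 11.34 in irradiated and 6.34, 8.26 and 9.72 in sham tumours, and this wide spread left its difference of 0.86 ± 0.53 far from a call (adjusted p = 0.44). Of 20 genes of oxidant defence 15 were positive, with the thiol reductant Txn1 at 0.35 (adjusted p = 0.24) and the peroxidase Prdx1 on the other side at -0.27 (adjusted p = 0.167). Of 21 interferon response genes 14 were positive (median 0.12), including the ubiquitin-like Isg15 at 0.46 (adjusted p = 0.301). Cxcl10, a chemokine that attracts T cells, stood at 5.89, 7.01 and 8.10 in irradiated and 5.58, 6.14 and 6.99 in sham tumours, with overlap and a difference of 0.67 ± 0.26 (adjusted p = 0.211). Genes of one list share their regulation and their cells, so positive members are not independent counts.

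Of 17 oxidative phosphorylation genes 1 rose, Cox7a2, and the median was 0.03. At an unadjusted p of 0.05, 29.4% of them and 15.4% of all genes stood out, in both directions, with the ATP synthase subunit Atp5a1 at 0.37 (adjusted p = 0.248) and the complex I subunit Ndufv1 at -0.21 (adjusted p = 0.213). The same share was 28.6% in the glycolysis list and 26.7% in the break and excision repair list. Atp5c1, which fell, is not on the oxidative phosphorylation list. The 17 genes of the unfolded protein and integrated stress response had a median of 0.13, the 16 senescence and secretory genes 0.14, the 11 heat shock genes -0.03, the 17 immediate early genes 0.04 and the 14 ribosomal protein genes 0.06, with 0 calls in each of these 5 lists. Single members lay further out, such as the chaperone Hsph1 at -0.54 (adjusted p = 0.177). Among TGF-beta pathway genes, 16 were tested with a median of 0.05, and the signal transducer Smad2 came nearest to a call at -0.35 (adjusted p = 0.096). The 17 genes of epithelial to mesenchymal transition and adhesion had a median of 0.10, and Krt18, a keratin of simple epithelia, was detected on all arrays while Epcam, Krt19, Cldn3 and Cldn4 were not detected on any. The 18 antigen presentation genes had a median of 0.01.

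**Figure D4:**
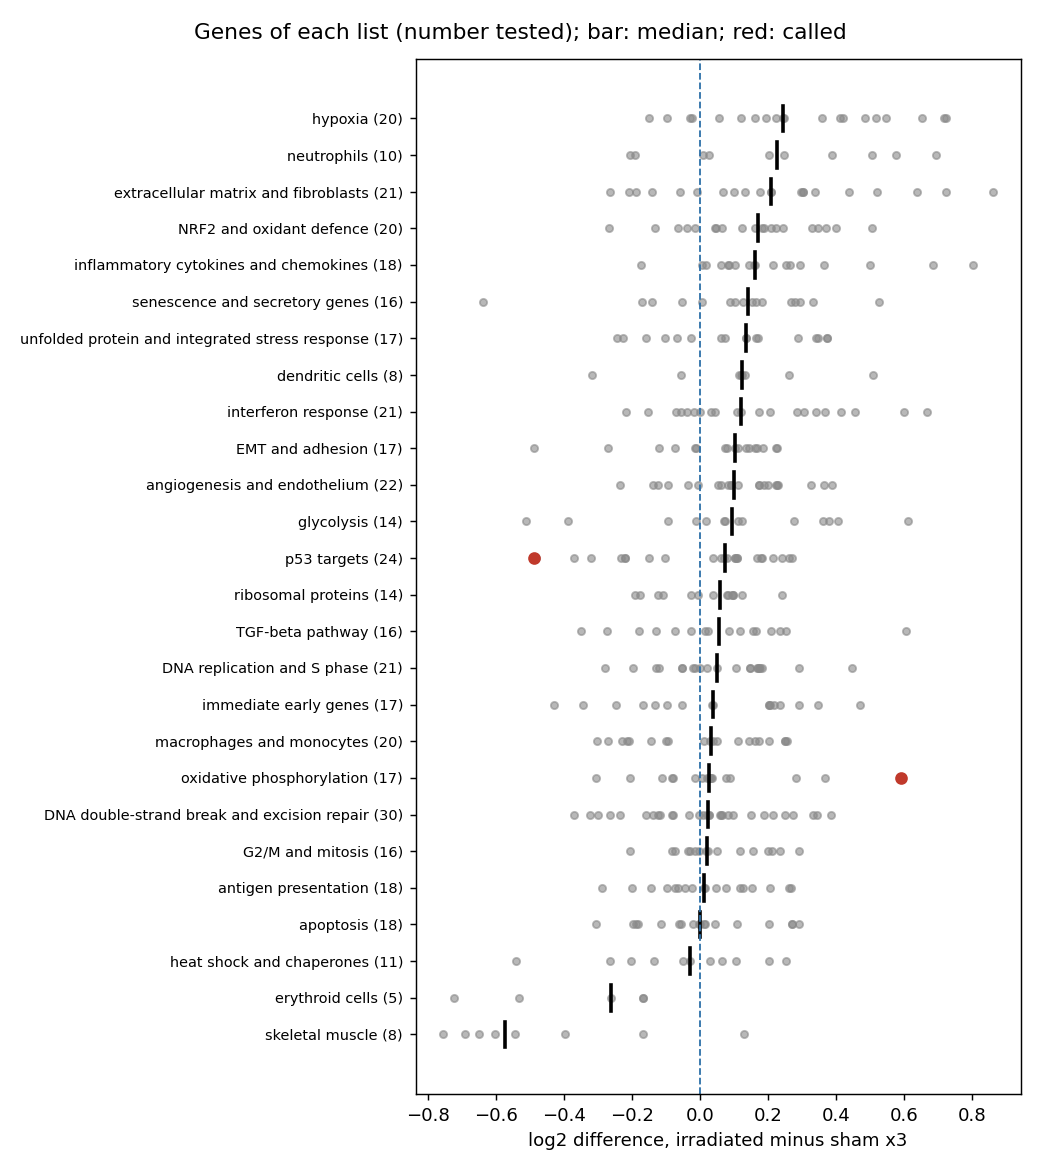
Each row is a gene list with at least 5 genes tested. Points are the log2 differences of its genes, irradiated minus sham x3, black bars the medians, and the 2 red points the called genes Rrm2b and Cox7a2. The hypoxia median is 0.25, and the muscle median of -0.57 is 0.23 without sham replicate 5.

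Markers of host cells gave no calls in any list, but only 0.293% of all named genes were called by their brightest probe. Lists this short would rarely hold a call at that share. Of 22 endothelial genes 16 were positive (median 0.10), with the receptor Tie1 at 0.39 (adjusted p = 0.139), and of 20 macrophage and monocyte genes 12 were (median 0.03). Of 10 neutrophil genes 8 were positive (median 0.23), and their summed intensity ran from 836 to 14636 in irradiated tumours and from 1295 to 9867 in sham tumours. S100a8, an abundant neutrophil protein, differed by 0.58 (adjusted p = 0.666). Of 8 dendritic cell genes 6 were positive (median 0.12), with the actin bundler Fscn1 at 0.51 (adjusted p = 0.0827). Few lymphocyte genes passed the detection filter: 3 of 18 T cell genes, 3 of 14 natural killer genes and 0 of 9 B cell genes. Some were bright, such as Cd8b1, a chain of the CD8 co-receptor, which stood at 9.76, 10.22 and 10.48 in irradiated and 9.56, 10.04 and 10.23 in sham tumours, a difference of 0.14 ± 0.12 (adjusted p = 0.598). Foxp3, the regulatory T cell factor, differed by -0.20 ± 0.09 (adjusted p = 0.265) and Prf1, perforin, by -0.08 ± 0.21 (adjusted p = 0.884). Cd8a, which encodes the other chain of the CD8 co-receptor, was not detected on any array. The same held for Cd2, Cd5, Lat, Pdcd1 and Il2ra of the T cell list. Ncr1 and Gzmb of the natural killer list were likewise undetected on every array. Whether the bright Cd8b1, Foxp3 and Prf1 probes read lymphocytes was not tested.

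Medians of muscle and red cell genes moved with single arrays and with array covariates. The 8 muscle genes had a median difference of -0.57 with sham replicate 5 and 0.23 without it, and ran from -1.04 to 0.23 over the 39 settings. The 5 erythroid genes had -0.26 with it and -0.05 without it, ran from -0.49 to 0.10, and turned positive with the detected share (0.05) or the background intensity (0.06) as a covariate and without both sham replicate 5 and irradiated replicate 1. The erythroid sum lay at 5075 to 49788 on the irradiated arrays, at 55262 on sham replicate 5 and at 9052 to 46394 on the other sham arrays. With the summed muscle intensity of each array in the model, 76 of the 77 called probes passed, among 102 in all. Without both sham replicate 5 and irradiated replicate 1, 133 passed, 67 of them among the 77. Both of these fits were added after the data were seen. A planned fit that adjusted for the share of probes an array detected gave 28 calls, and 25 of the 77 passed in it. Stmn1 (adjusted p = 0.0895), the called Sesn1 probe (0.0802), Larp1 (0.0555) and Rrm2b (0.051) did not pass there. Mterf1a (adjusted p = 0.0197), Mterf1b (0.0266), Kat6a (0.0459) and Cox7a2 (0.0445) did. Most of the 77 calls thus depended on whether this array measure was in the model.

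The same contrast in old hosts used separate arrays, 10 irradiated and 9 sham x3 tumours, and was fitted with the adolescent arrays in a model of 38. In old hosts 15.4% of 19730 probes were higher and 11.4% lower after irradiation. That model gives each probe 1 variance for both ages, whatever the spread at each age. In it only 2 probes passed in adolescent hosts, so the old shares cannot be set against the 77 of the fit of 19 arrays. Of the 77 probes called in adolescent hosts, 62 had the same sign in old hosts, a larger share than the 61.8% of all probes. Called in old hosts in the same direction were 8 of the 24 higher and 22 of the 53 lower probes, and 2 of the 77 were called in the opposite direction. Tm6sf1 differed by -1.65 ± 0.24 in old hosts (adjusted p = 2.62e-05), Lilra6, a leukocyte immunoglobulin-like receptor, by -1.59 ± 0.24 (adjusted p = 2.82e-05) against -0.69 ± 0.14 in adolescent hosts, and Kat6a by -0.90 ± 0.18 (adjusted p = 0.000399). Larp1 was higher in old hosts too, by 1.23 ± 0.22 (adjusted p = 0.000122). Mterf1a and Mterf1b were lower there by smaller amounts, at -0.31 (adjusted p = 0.0147) and -0.33 (adjusted p = 0.00768). Cnot11 and Zfp507 stood at 0.08 and 0.16, and neither passed in old hosts.

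The difference between the ages was tested directly as an interaction. Of 19730 probes 462 passed (2.34%), 231 in each direction (1.17%), and 6 of the 77 were among them. The even split depended on single arrays: without old sham replicates 6 and 7, 93 were higher and 209 lower. The 77 were picked on the adolescent arrays that also enter this test, so the 6 are not independent of that choice. At an unadjusted p of 0.05 the share of all probes was 19.7%. Chosen by the interaction test after the values were seen, the 6 were both Zfp507 probes, Pramel12, Pibf1, a centrosomal protein, and 2 probes without a name. Of these unnamed probes, ILMN_1221475 was undetected on every adolescent sham array, so it entered the test of 19 arrays through irradiated tumours alone. For Zfp507 the old minus adolescent difference of effects was 0.73 (adjusted p = 0.0239) and 0.64 (adjusted p = 0.0478). Pramel12 stood at 0.31 in old hosts and fell in adolescent hosts (-0.64), an interaction of 0.94 (adjusted p = 0.015). For the 11 named genes that passed whichever tumour was left out, Zfp507 was the one with an interaction call. The endothelial list had a median of -0.82 in old hosts, with 9 of 22 genes lower, where 11.9% of all named genes were, and 0.10 in adolescent hosts with 0, and 0 of its genes passed the interaction, where 1.91% of all named genes did by their brightest probe.

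**Figure D5:**
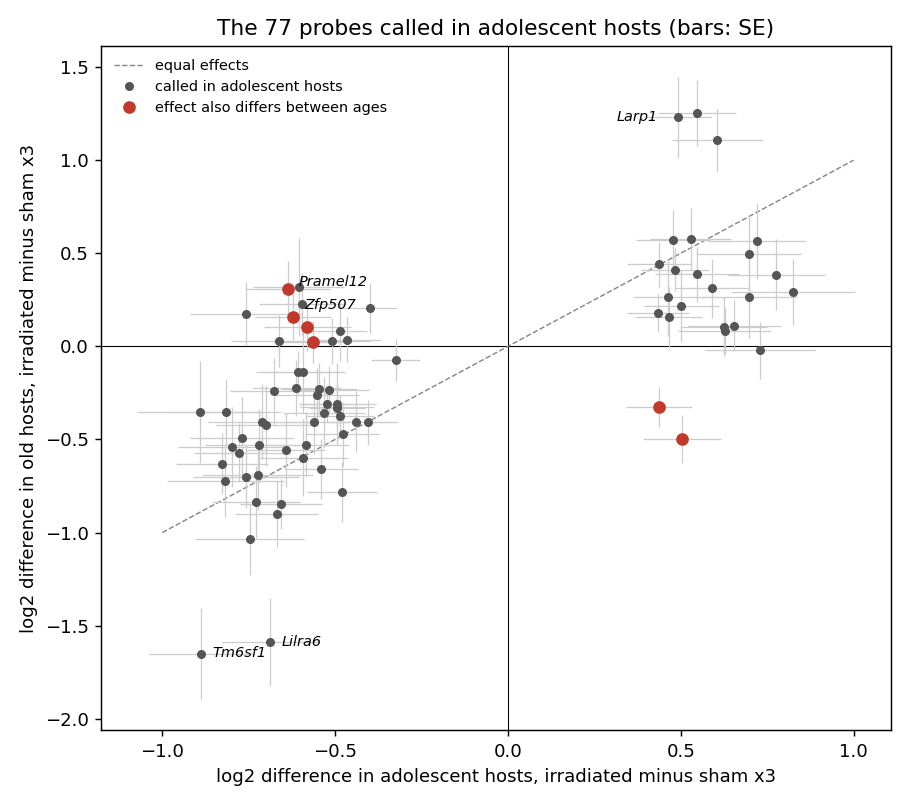
Each point is 1 of the 77 probes called in adolescent hosts, with its log2 difference there on the horizontal axis and in old hosts on the vertical axis, bars being standard errors and the dashed line equal effects. The 6 red points also passed the interaction test, and the 62 probes of equal sign lie at the lower left and upper right of the plot.

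Sham tumours of the acute schedule gave a second baseline, but the comparison with them shares all 10 irradiated arrays, and schedule and irradiation differ together in it. In that comparison 17.4% of probes passed, 9.44% higher and 7.94% lower in irradiated tumours. Mterf1a stood at -0.47 (adjusted p = 0.000594), Mterf1b at -0.50 (adjusted p = 5.91e-05) and Arhgef18 at -0.65 (adjusted p = 0.00521) as irradiated minus sham acute, beside -0.52, -0.49 and -0.83 as irradiated minus sham x3. Cox7a2 stood at 0.02 (adjusted p = 0.959) and Polr1a at -0.10 (adjusted p = 0.727) against sham acute, beside 0.59 and -0.56 against sham x3. Rrm2b stood at -0.00 against sham acute and -0.49 against sham x3.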

How the data were processed

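Tumour RNA was hybridised to Illumina bead arrays, 1 array per tumour, and 19 of the 57 arrays entered the main fit, 10 irradiated and 9 sham x3. The deposited table holds a mean bead intensity for each of 45281 probes, without background subtraction, since its lowest value is 70.8, and not scaled between arrays, since array medians lie between 89.2 and 149 among these 19. It also holds a detection p-value per probe and array, computed by the authors' software against control beads, per the file headers. GenomeStudio, with no version, is the tool per the submitters' processing notes. The series' design text names background subtraction and rank-invariant normalization, but the authors' deposited normalized intensity values stay far above 0, so which steps made that table is not known, and it served as an alternative.

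The limma package (3.58.1, R 4.3.3) was used throughout: neqc (background from the detection p-values, offset 16, quantile normalization, log2), a filter of detection p under 0.05 on at least 9 arrays (18547 probes, 41%), then lmFit and eBayes. All adjusted p-values are limma's, by Benjamini-Hochberg over all probes kept, and probes under 0.05 are called. A probe detected in only 1 of the groups can meet this filter, and its level in the other group is then a bound. Offset intensities understate the change of dim probes. Old hosts were fitted with the adolescent arrays on 38 arrays, and sham acute tumours on all 57. Single values per array were compared by exact permutation (scipy 1.17.1). Scripts were tested on simulated data. The number of arrays limits the precision.

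Gene names come from the platform annotation given for the probes, which can be old: 34885 probes have 1 symbol, 18 several and 10378 none. In lists a gene is represented by its brightest probe, which gave 9889 genes. Named genes are the 15 called probes of largest difference per direction with and up to 10 without sham replicate 5, up to 4 genes of lowest p per list, 7 p53 targets and both Mterf1 probes, with exceptions said in place. The members, lists and the rule were chosen with earlier results of these data known. Groups come from titles and descriptions. The files used here name no chip, slide or scan time, so none was fitted. Alternatives changed the background, scaling, filter, weights, covariates and arrays, and left out each tumour in turn.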

Additional observations from a re-analysis of the deposited data

Results flagged for a closer look

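Of 246 sets of values examined for an array far from the rest of its group, 18 values stood out, where chance alone gives about 1 in 20, or 12.3. Sham replicate 5 held 8 of them and irradiated replicate 1 held 5.

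For array measures, irradiated replicate 1 and sham replicate 5 had the lowest mean correlations, 0.963 and 0.937. They also had the highest summed muscle intensities, 34138 and 127480. On sham replicate 5 the endothelial sum of 11502 and the glycolysis sum of 105920 lay above the other sham tumours. Actn3, an actin crosslinker of fast muscle, read 9.11 on irradiated replicate 1 and 13.17 on sham replicate 5.

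Single genes far from their group on irradiated arrays were Commd1 at 7.18 and Zeb2, a repressor of E-cadherin, at 8.83 on replicate 1, Klrd1, a natural killer receptor, at 6.47 on replicate 4, Cycs, the respiratory cytochrome c, at 10.35 on replicate 8, and Larp1 at 9.08 on replicate 9. On sham arrays they were Cycs at 12.08, Lep, the adipocyte hormone, at 6.60 and Herpud1, a stress gene of the endoplasmic reticulum, at 11.40 on replicate 5, Fscn1 at 9.33 on replicate 6 and Zeb2 at 9.52 on replicate 8.

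The irradiated minus sham x3 effect differed between old and adolescent hosts for 462 probes by the interaction test. Among genes of the lists, Itgb1, the integrin beta 1 chain, stood at 1.20 in old and -0.49 in adolescent hosts, an interaction of 1.70 (adjusted p = 0.00685). Isg15 had an interaction of -1.27 (adjusted p = 0.0253) and Lmnb1, a nuclear lamin, one of -0.89 (adjusted p = 0.0166). Among the probes called in adolescent hosts, Zfp507 had interactions of 0.73 and 0.64, Pramel12 of 0.94 (adjusted p = 0.015) and Pibf1 of 0.58 (adjusted p = 0.0425). The unnamed probes ILMN_1226660 and ILMN_1221475 had interactions of -0.996 (adjusted p = 0.00422) and -0.66 (adjusted p = 0.0161). The last of these was not above background on any of the 9 adolescent sham arrays, so its level there is a bound.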

How the results depend on the processing

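The 77 calls (24 higher, 53 lower) came to 15 to 197 with 1 tumour left out. They numbered 39 with subtracted background and a floor, 40 with rank-invariant scaling (4 higher, 36 lower), 253 in the authors' deposited normalized table (24 higher, 229 lower), 26 without the filter on dim probes, 355 with array weights, 28 with the detected share as a covariate, 21 in a fit of all 57 arrays and 2 in a fit of the 4 sets of the x3 schedule. The methods' test gave 5 with Bonferroni and 35 with Benjamini-Hochberg adjustment. Added after the data were seen were background intensity as a covariate (47), array weights without sham replicate 5 (260), and leaving out sham replicate 5 and irradiated replicate 1 (133). Under 6 other settings the count was 63 to 104. The cause of these changes was not tested, except that fewer probes or arrays were used where the setting says so. With the replicate number as a block 5 probes passed, 4 of them among the 77. The groups share only a number: over 9 pairs the correlation of deviations ran from -0.22 to 0.35 and 0 tumours correlated best with their own number.

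The 462 interaction calls (231 higher, 231 lower) came to 742 with that block (483 higher, 259 lower), 207 without the filter and 2935 with array weights. Without old sham replicates 6 and 7 they came to 302 (93 higher, 209 lower). The difference in mean correlation of 0.0020 became -0.0021 without sham replicate 5.

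Over the settings, 570 of 1577 values of 41 called probes no longer passed. Of 2794 values for 72 other probes 16 changed sign, none of them called: Mdm2 (-0.044 to 0.085 with 1 tumour left out, below 0 without sham replicates 6 and 8, and -0.074 in the authors' table), Cdkn1a (-0.0061), Klrd1 (-0.026 to 0.19 with 1 tumour left out), Slc4a1 (0.019), Ttn (-0.0041), Sbsn (-0.00077 and -0.023), Actn3 (-1.09 to 0.18) and Lep (-0.13 to 0.11, the highest without sham replicate 5, and 0.054, 0.072, 0.10, 0.062 and 0.058). Probes near background limit what can be measured: 25 of the 77 were undetected on at least 1 array.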

Other observations

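Genes of the interaction test that lie outside the adolescent calls are given as values: 4 examples, picked after the values were seen and not by rank, from a list of named genes with a large difference in effects. Ybx3 (2.09) and Ide (1.89) had a larger positive interaction than Alyref and Cdc20, and Npm3-ps1 (-1.79) and Atf5 (-1.73) a more negative one than Ogt. Alyref, an mRNA export adaptor, stood at 1.76 in old and 0.04 in adolescent hosts (interaction 1.71, adjusted p = 0.00442), and Cdc20, an activator of the anaphase-promoting complex, at 1.99 in old and 0.29 in adolescent hosts (interaction 1.70, adjusted p = 0.0343). This Cdc20 probe was dim in old sham tumours, with a mean of 5.24. A brighter Cdc20 probe represents the gene in the mitosis list, where 0 genes passed the interaction, and differed by 0.02 in adolescent hosts. In the other direction, Dock10, a guanine nucleotide exchange factor, stood at -1.88 in old and -0.02 in adolescent hosts (interaction -1.87, adjusted p = 0.00328). Ogt, which attaches N-acetylglucosamine to proteins, stood at -1.22 in old and 0.41 in adolescent hosts (interaction -1.63, adjusted p = 0.00422). None of these 4 passed in adolescent hosts in this joint model of 38 arrays, where their adjusted p-values ran from 0.587 to 0.995, or in the fit of 19 arrays, where Ogt had the lowest (0.117).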
